A study of Drosophila melanogaster with 4 samples.

Results

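Long stretches of the Drosophila melanogaster chromosomes carried no called enrichment of dimethylated lysine 79 of histone H3 (H3K79me2) in late embryos. A stretch here is the ground between neighbouring enriched regions of the replicate-set list (the list the authors deposited for the replicate set as a whole), on 1 of the 5 large chromosome arms (X, 2L, 2R, 3L and 3R), where that ground measured at least 75000 bp. There were 318 such stretches among 5155 intervals between neighbours, which is 6.17% of them. They held 39.5 Mb, or 33.2% of the 119.0 Mb of the 5 arms. The material was whole wild-type embryos of strain Oregon-R at 14 to 16 h of development, crosslinked in 1.8% formaldehyde. The labels name 2 groups of 2 samples each, H3K79me2 ChIP and input, where input is chromatin that did not pass the antibody. Deposited lists of enriched regions were used for ChIP replicate 1, ChIP replicate 2 and the replicate set, and values of the input samples are not analysed here. Whether each replicate had its own embryo collection is not in the labels, and the SDs given may therefore be technical. Whole embryos mix all tissues, and the labels give no tissue.

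H3K79 methylation is placed by the Dot1 family of methyltransferases, of which the fly member is grappa. The mark lies on the nucleosome core, not on the histone tail, and is found over the transcribed part of active genes, mainly near their 5′ ends. Ground without it can hold silent genes, inactive intergenic sequence, long introns or repeats. In flies, large silent blocks are known as Polycomb-bound, lamina-associated or heterochromatic chromatin. The lists hold no gene names and no annotation of their genome release was used, so no gene inside a stretch is named and no sequence is printed.

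The stretches were chosen by called enrichment, so their emptiness, number and length in the replicate-set list are descriptions and carry no test. The replicate lists cannot serve as independent evidence either, since the replicate-set list covers the same 2 ChIP samples. Read numbers are unknown, and a stretch without regions may hold enrichment that was below the authors' threshold. How much of the stretches is unique sequence, to which reads can be aligned, was not tested. On the 5 arms the replicate-set list held 5160 regions, that of replicate 1 held 4957 and that of replicate 2 held 4934. Coordinates are of FlyBase release 5 throughout.

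Most stretches were not far above the limit, and a few were several times as long. The median length was 108.8 kb, the quartiles were 88.9 and 144.3 kb, and the longest measured 393.5 kb. Of the 318, 125 were under 100 kb, 124 from 100 to 150 kb, 45 from 150 to 200 kb and 24 of 200 kb or more. The other 4837 intervals had a median length of 6.25 kb and together held 60.8 Mb. Of all ground outside regions on the 5 arms, 39.3% lay in the 318 stretches. The replicate lists gave 343 intervals of at least 75 kb in replicate 1 (6.93% of its intervals) and 325 in replicate 2 (6.59%), with medians of 108.6 and 114.3 kb. They held 42.9 and 42.2 Mb, both more than in the replicate-set list, which has more regions than either.

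**Figure D1:**
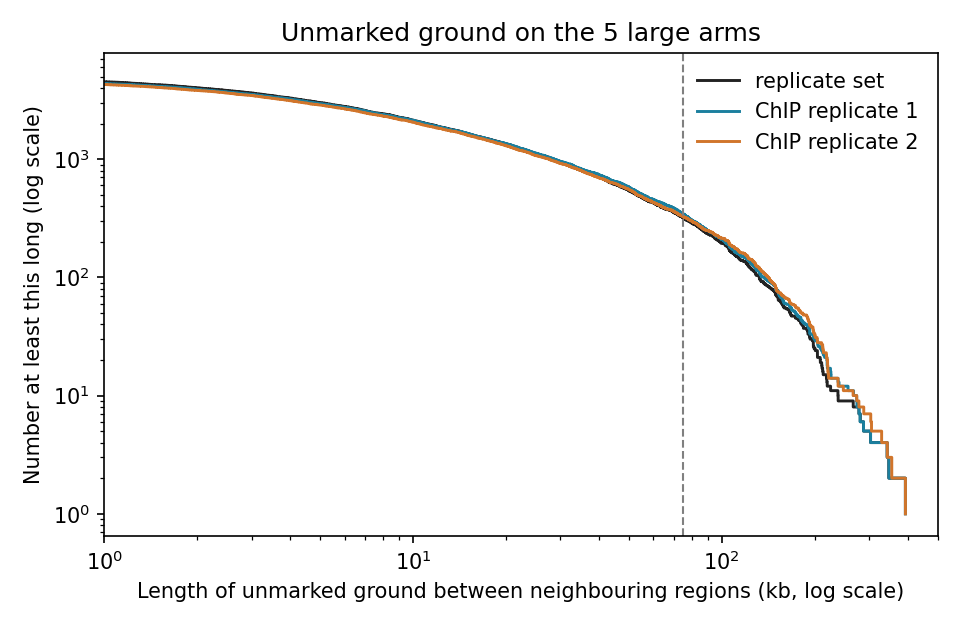
Number of intervals between neighbouring regions (y axis, log scale) that are at least as long as the length on the x axis (kb, log scale, from 1 kb), for the replicate set and for each ChIP replicate. The dashed line marks 75 kb, where the curves stand at 318 for the replicate set, 343 for replicate 1 and 325 for replicate 2, and no step in any curve separates the stretches from shorter ground.

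The limit of 75 kb cuts through a continuous range of lengths. Just inside it were intervals of 75035 bp on 2R (7602045 to 7677079), 75.2 kb on 3L (4430971 to 4506185) and 75.3 kb on 2L (11283319 to 11358645). Just outside it were 74.9 kb on 3L (5271645 to 5346509), 74.8 kb on 3L (753485 to 828283) and 74.6 kb on 3R (21721027 to 21795627).

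The longest stretch lay on 2L from 15771941 to 16165441. It measured 393.5 kb in the replicate-set list, and the matching empty interval measured 393.5 kb in replicate 1 and 393.7 kb in replicate 2. The regions at its edges were weak, with scores of 0.56 and 0.43 in the replicate-set list. The score is the authors' value per region, deposited without a unit, and its median on the 5 arms was 1.96 in that list. The edge region at the low-coordinate end scored 0.30 in replicate 1 and 0.96 in replicate 2, and that at the high-coordinate end scored 0.54 and 0.51. The next longest stretch lay on the same arm from 16910969 to 17258643 (347.7 kb) and was also bordered by weak regions, scoring 0.20 and 0.78. Replicate 2 did not list the weaker of these, and its empty interval there was 355.5 kb long, against 348.0 kb in replicate 1.

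The other long stretches differed in the scores at their edges. On X a stretch of 343.5 kb from 21502081 to 21845605 lay between regions scoring 2.60 and 2.74, which scored 3.10 and 3.08 in replicate 1 and 1.98 and 2.36 in replicate 2. On 3L a stretch of 303.5 kb from 24226069 to 24529529 lay between regions scoring 0.72 and 2.21. A stretch of 288.0 kb from 23732777 to 24020759 on the same arm lay between regions scoring 1.62 and 2.15. On 2R the longest stretch, 278.2 kb from 15719929 to 15998171, had wide and strong regions on both sides, of 6707 bp with a score of 2.44 and of 6407 bp with a score of 2.87. Its empty interval measured 278.4 kb in replicate 1 and 278.2 kb in replicate 2.

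The remaining members of the 10 longest measured 281.1 kb on 2L (14690079 to 14971177), 266.6 kb on X (7235029 to 7501673), 238.3 kb on 3R (8546371 to 8784657) and 237.9 kb on 3L (23334355 to 23572269). None of the 10 held a region of either replicate list apart from the rims of their own edge regions. Those rims covered at most 463 bp of a stretch in replicate 1 and at most 483 bp in replicate 2. Arm 3R had the shortest maximum in the replicate-set list, 238.3 kb, whereas its longest empty interval was 274.2 kb in replicate 1 and 273.8 kb in replicate 2. Between 23876603 and 24150431 the replicate-set list divided that interval into 96.3 and 176.5 kb by a region of 1013 bp with a score of 0.40, which neither replicate list held.

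The X chromosome and 2L had the largest shares of their length in such stretches, and 2R the smallest. X had 43.2% in replicate 1 and 41.5% in replicate 2 (42.3% ± 1.23, SD, n = 2), and 40.6% in the replicate-set list. Arm 2L had 40.4% in replicate 1 and 41.0% in replicate 2 (40.7% ± 0.37), and 36.7% in the replicate-set list. X was above 2L in each replicate, but in replicate 2 by little. Arm 3L followed at 35.0% ± 0.21, 3R at 32.5% ± 0.30 and 2R at 28.4% ± 0.61, and these steps were larger than the SDs and held in all 3 lists. Arm 2R also had the fewest stretches, 45 in the replicate-set list, against 72 on X, 66 on 2L, 63 on 3L and 72 on 3R. Per Mb, X had 3.30 ± 0.25 and 2R 2.32 ± 0.13 in the replicate lists (SD, n = 2), and 3.21 and 2.13 in the replicate-set list.

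**Figure D2:**
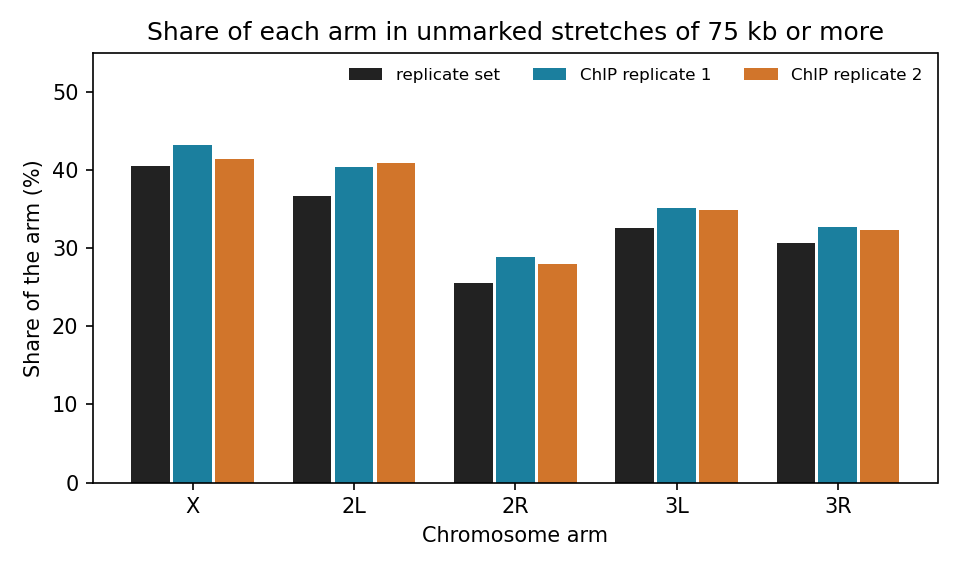
Share of each chromosome arm (y axis, percent of arm length) that lies in unmarked stretches of at least 75 kb, for the replicate set and for each ChIP replicate (1 bar per list, no error bars). In all 3 lists 2R has the lowest bars, from 25.6% to 28.9%, and X from 40.6% to 43.2%.

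X was set against the autosomal arms together, because the single male X of flies is dosage compensated. Any part of dosage compensation in these shares was not tested. X exceeded the 4 autosomal arms in all lists, by 9.07 percentage points in the replicate-set list (40.6% on X, 31.5% on the autosomal arms). In replicate 1 the excess was 8.85 points (43.2% against 34.3%) and in replicate 2 it was 7.37 points (41.5% against 34.1%). The excess did not set X apart from each autosomal arm, since 2L was close to it. The length of a typical stretch differed less between arms, with medians from 104.8 kb on 2R to 119.0 kb on 2L in the replicate-set list.

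Stretches filled most of the assembled 1 Mb next to the centromere on X, 2L and 3L. In the replicate-set list they took 84.2% of it on X, 86.1% on 3L and 52.1% on 2L, against 39.1%, 31.7% and 36.4% between the end megabases. Values with an SD are means of the 2 replicate lists, each with its own intervals of at least 75 kb. By these, the shares were 84.2% ± 0.01 on X, 90.8% ± 6.59 on 3L and 61.0% ± 0.88 on 2L. Between the end megabases of these arms they were 40.9% ± 1.06, 33.9% ± 0.28 and 40.4% ± 0.45 (SD, n = 2). On 2R the share there was 45.8% ± 3.39, against 28.0% ± 0.49 between the ends (40.8% against 25.2% in the replicate-set list). Arm 3R had a similar share in both places, at 32.1% ± 0.73 against 32.9% ± 0.08 (31.7% against 31.1% in the replicate-set list). Over the 5 arms the share was 62.8% ± 0.32 at the centromere end, 35.2% ± 0.28 between the ends and 21.1% ± 3.40 at the telomere end. In the replicate-set list these were 59.0%, 32.7% and 18.4%. Pericentric sequence is rich in repeats, and its share of unique sequence was not tested.

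Only 17 of the 318 stretches had their midpoint in the megabase next to a centromere and 10 in the megabase next to a telomere, so 291 lay inside the arms. In the replicate-set list the share of ground in stretches was 37.9% in the 20% of the arms nearest the centromere and 28.9% in the 20% nearest the telomere. In the replicate lists, each with its own intervals, these were 41.2% ± 0.25 and 31.2% ± 0.02 (SD, n = 2). The 3 parts between them, each 20% of an arm, had 35.5% ± 0.26, 35.9% ± 0.27 and 35.0% ± 1.11 (33.5%, 33.7% and 32.0% in the replicate-set list). Arms differed in which of these 5 parts had the largest share in stretches. On X it was the part nearest the centromere, at 59.8% ± 0.85, and on 2L the next part, at 60.1% ± 0.54. On 3L it was the middle part, at 47.3% ± 0.11, and on 2R the fourth from the centromere, at 41.9% ± 1.06. On 3R all parts lay between 29.9% ± 1.38 and 34.9% ± 0.95, and between 23.1% and 34.1% in the replicate-set list.

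**Figure D3:**
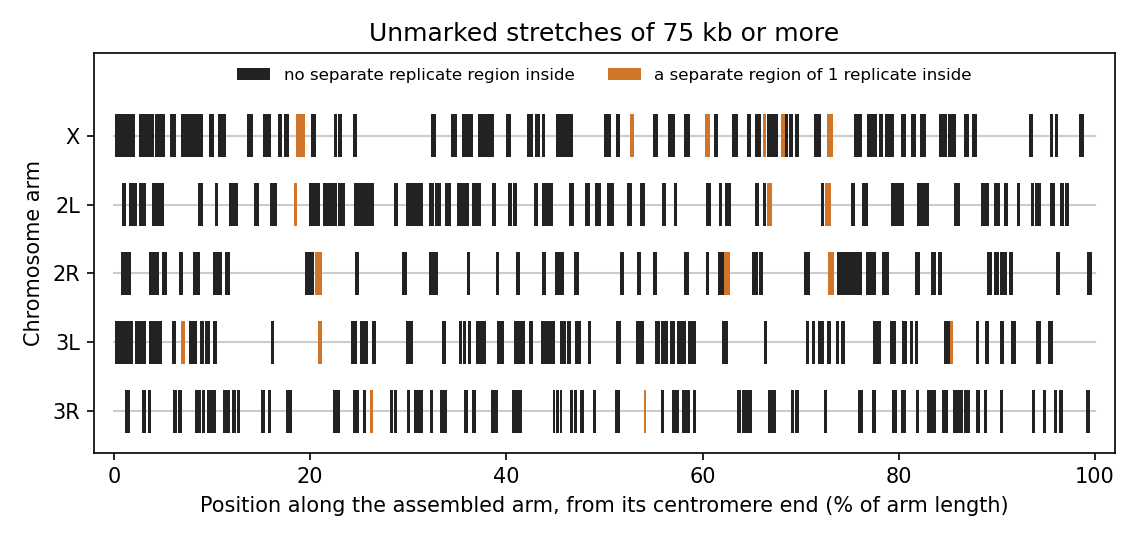
The 318 unmarked stretches (bars, to scale) along the 5 large arms (rows), by position from the centromere end of the assembled arm (x axis, percent of arm length). Orange bars are the 17 stretches inside which 1 of the replicate lists had a region of its own, and black bars are the other 301.

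Ground before the first or after the last region of an arm is not counted among the stretches. It was 128.5 kb at the telomere end of 3L and at most 48.6 kb at the other 9 arm ends. The first megabase of 3L therefore held no stretch in the replicate-set list, although its outermost 128.5 kb had no region.

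Whole megabases could be mostly empty. In 18 of 117 whole 1-Mb bins, stretches took at least 50% of the ground, in the replicate-set list and in each replicate list. By the mean of the replicates, the share in stretches was largest in the bins at 10 Mb of 3L (79.4% ± 0.71), 23 Mb of 3L (76.5% ± 12.4), 21 Mb of X (76.3% ± 0.02) and 17 Mb of 2L (75.7% ± 0.17). Next came the bins at 7 Mb (70.8% ± 6.26) and 20 Mb (68.9% ± 0.55) of X (SD, n = 2). In the bin at 10 Mb of 3L the enriched regions covered 5.36% of the ground in replicate 1 and 6.13% in replicate 2. It was not the least covered bin, since at 23 Mb of 3L they covered 3.22% and 2.76%. On 2L the bins at 14, 15 and 17 Mb were all among the 18, and 3L had pairs of neighbouring bins at 13 and 14 Mb and at 22 and 23 Mb. Further pairs lay at 20 and 21 Mb of X and at 23 and 24 Mb of 3R. In the replicate-set list 2 bins held no stretch, the first megabase of 3L and the bin at 3 Mb of 2R, and replicate 1 had some there (7.72% and 9.57%).

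Stretches often came directly after each other, with just 1 enriched region between them. This was so for 96 of the 318 (30.2%), whereas 510 of the 4837 shorter intervals (10.5%) had a stretch as a direct neighbour, and over all intervals the share was 11.8%. In the replicate lists the shares were 30.3% of stretches against 11.8% of shorter intervals in replicate 1, and 27.4% against 11.5% in replicate 2. The 96 formed 46 runs, of which 43 were pairs, 2 were triplets and 1 had 4 members. The run of 4 lay on X from 20396859 to 20897881. It spanned 501.0 kb, of which 98.7% was unmarked, and its 3 regions together measured 6.41 kb. The triplets lay on 2R from 15580813 to 16119291 (538.5 kb, 97.6% unmarked), around the longest stretch of that arm, and on X from 21943885 to 22396705 (452.8 kb, 98.6% unmarked).

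When stretches with at most 50 kb of marked ground between them were joined, 158 of the 318 (49.7%) fell into 69 groups of 2 or more. No share of all intervals was worked out under this rule, so the 49.7% cannot be read as clustering. The longest group reached 796.8 kb on 3L from 23732777 to 24529529, near the centromere end, with 3 stretches that made up 93.8% of it. The next longest measured 598.2 kb on X from 4603199 to 5201351 (87.5% in stretches), 584.2 kb on X from 21261403 to 21845605 (95.3%) and 545.5 kb on X from 7235029 to 7780577 (90.7%). Then came the triplet of 538.5 kb on 2R (97.6%) and 522.4 kb on 2L from 17591651 to 18114057 (94.2%). These shares count the stretches only. Shorter empty intervals between the regions of a group are left out, so its unmarked share can be higher.

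Between the stretches lay 323 blocks of marked ground, which differed widely in size. Of these, 51 consisted of 1 region, 73 had 2 to 5 regions, 113 had 6 to 20 and 86 had 21 or more. The 86 largest blocks held 67.7% of all regions and 45.0% of the length of the arms. The longest block was 1677 kb on X from 15186144 to 16863622, with 105 regions that covered 23.4% of it in replicate 1 and 26.4% in replicate 2. The block with most regions, 120 in 1631 kb, lay on 2R from 2497196 to 4127780. Median scores were higher in larger blocks: the median in the replicate-set list was 1.18 for blocks of 1 region, 1.78 for 2 to 5, 1.93 for 6 to 20 and 1.99 for 21 or more. Small blocks consist of edge regions in larger proportion, and the part of this in their lower medians was not tested.

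Both replicate lists left nearly all of this ground empty. Regions of replicate 1 covered 11.9 kb of the 39.5 Mb (0.030%) and those of replicate 2 covered 90.3 kb (0.23%), against 20.4% and 23.3% of the rest of the arms. That rest holds all regions of the replicate-set list, so this contrast was set by the choice of stretches. Shorter intervals of the replicate-set list were nearly empty too, with 0.15% covered in replicate 1 and 1.63% in replicate 2. Of the covered length of each list, 0.073% in replicate 1 and 0.48% in replicate 2 fell inside stretches. What little there was lay mostly at the rims. Replicate 1 left 185 stretches (58.2%) without any covered base, replicate 2 left 67 (21.1%), and both together left 24 (7.55%, 95% Wilson interval 5.12% to 11.0%, counting error only). Over all intervals of the replicate-set list these shares were 67.7%, 14.1% and 3.86%. The lower counts of replicate 2 went with its wider regions, whose median width on the arms was 3154 bp against 2841 bp in replicate 1, and the part of width in these counts was not tested.

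Regions separate from those at the edges were rare inside the stretches. Replicate 1 had such a region in 3 stretches and replicate 2 in 14, with no stretch in common. Thus 301 of 318 (94.7%, 95% Wilson interval 91.6% to 96.6%, counting error only) had none in either list. The Wilson intervals given treat stretches as independent, although neighbouring stretches can share an edge region, and they hold no spread between samples. Over all intervals, 0.388% held a separate region of replicate 1, 2.27% one of replicate 2 and 2.64% one of either. Per Mb of ground, stretches had 0.076 separate regions in replicate 1 and 0.35 in replicate 2, and shorter intervals had 0.28 and 1.78. Per interval the order was the reverse. A separate region lay in 0.94% of stretches in replicate 1 and 4.40% in replicate 2, against 0.35% and 2.13% of shorter intervals. More of the ground of shorter intervals is near an edge, and the part of this in the values per Mb was not tested. All 17 were weak, scoring 0.27 to 0.43 in replicate 1 and 0.26 to 0.63 in replicate 2, against medians over the arms of 2.19 and 1.89. None of the 17 was touched by a region of the other replicate. Of the 14 in replicate 2, 9 lay within 5 kb of an edge, whereas the 3 in replicate 1 lay 26.4 to 40.2 kb from the nearer edge. The deepest was on X from 8866966 to 8868373 in replicate 2, 55.3 kb from the nearer edge of its stretch, with a score of 0.51.

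**Figure D4:**
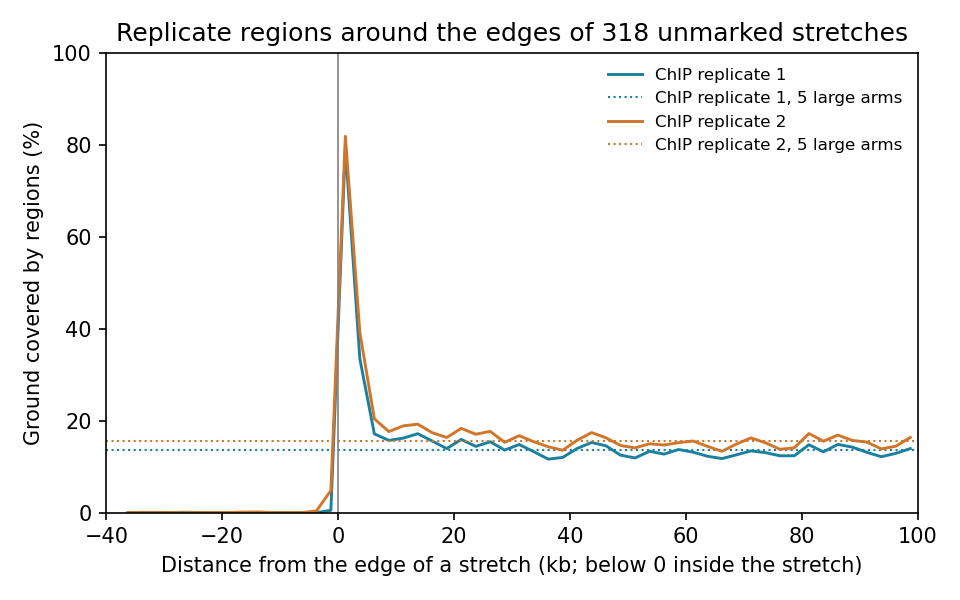
Share of ground covered by enriched regions of each ChIP replicate (y axis, percent, in bins of 2.5 kb) by distance from the edges of the 318 stretches (x axis, kb, negative inside). Dotted lines give the share over the 5 arms, 13.6% in replicate 1 and 15.6% in replicate 2. Inside, coverage is 0.49% and 4.80% in the first bin and at most 0.35% in any deeper bin, and the peak just outside is the edge region itself.

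With 1 kb left out at each edge, 315 stretches were empty in replicate 1, 291 in replicate 2 and 288 in both. The matching empty interval was still at least 75 kb long in 316 stretches in replicate 1, in 311 in replicate 2 and in 309 in both. Of the 9 that fell short, 7 held a separate region and the other 2 were just over the limit, at 75.2 and 75.6 kb. The largest loss was on X from 8802531 to 8923631, where the region of replicate 2 with a score of 0.51 left 64.4 kb of 121.1 kb, against 121.3 kb empty in replicate 1. On 3R from 7277335 to 7367155 a region of replicate 1 with a score of 0.37 left 48.3 kb of 89.8 kb, and replicate 2 had 105.6 kb empty at that place.

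The 5 stretches with most replicate bases inside owed them to replicate 2. They were on 2L from 18323845 to 18441335 (3479 bp in replicate 2, 0 in replicate 1), on X from 7507619 to 7588371 (3303 and 0 bp), on 2L from 6184275 to 6322865 (3216 and 21 bp), on X from 10525295 to 10636651 (2894 and 0 bp) and on 2L from 18710377 to 18785857 (2757 and 0 bp). In the X stretch from 7507619 the widest separate region, 2793 bp with a score of 0.61 in replicate 2, left an empty interval of 65.0 kb, against 83.3 kb in replicate 1.

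The replicate lists placed the edges close to those of the replicate set. A region of replicate 1 overlapped the edge region at 591 of 636 edges (92.9%), and a region of replicate 2 at 559 (87.9%). At these edges replicate 1 stopped 82 bp short of the edge in the median (quartiles -218.5 and 0.5 bp, negative meaning away from the stretch). Replicate 2 reached 28 bp into the stretch (quartiles -51.5 and 114.5 bp). The 2 lists were within 500 bp of the edge in 88.2% of cases in replicate 1 and 92.8% in replicate 2. Where a replicate lacked the edge region, its empty ground could run on past the edge. The interval was longer than the stretch by at least 10 kb in 34 cases in replicate 1 and in 55 in replicate 2, and by at most 177.9 and 240.1 kb.

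Seen from the replicate lists, most of their own long intervals were the same ground. Of the 343 of replicate 1, 313 (91.3%) had at least 50% of their length in 1 stretch of the replicate set, and of the 325 of replicate 2, 301 (92.6%) did. The replicate-set list placed whole regions inside 66 of the intervals of replicate 1 and 86 of those of replicate 2. These dividing regions numbered 80 and 101, and their median scores were 0.37 and 0.34. The other replicate had a region at 54 of the 80 and at 74 of the 101. Ground free of regions in all 3 lists for at least 75 kb came to 309 intervals, 38.5 Mb and 32.4% of the arms.

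Regions at the edges of stretches scored lower than the other regions and were slightly narrower. In the replicate-set list, 586 regions stood at an edge, with a median score of 1.41 against 2.01 for the other 4574, and a median width of 2861 bp against 3097 bp. When each replicate list was used to find its own stretches, the edge regions scored 1.68 against 2.26 in replicate 1 and 1.60 against 1.92 in replicate 2. The difference was -0.58 in replicate 1 and -0.33 in replicate 2 (-0.45 ± 0.18, SD, n = 2), and for width it was -175 and -256 bp (-215.5 ± 57.3). Scores under 1 were found for 39.8% of edge regions against 27.5% of the others in the replicate-set list, for 31.9% against 21.5% in replicate 1 and for 31.0% against 23.7% in replicate 2. Regions of at least 5 kb were not missing from the edges, where they made up 13.7% against 16.9% of the others in the replicate-set list.

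The lower score was not limited to the stretches, since regions beside ground of 20 to 75 kb scored as low. Median scores in replicate 1 were 2.44 beside ground under 5 kb, 2.19 beside 5 to 20 kb, 1.67 beside 20 to 75 kb, 1.61 beside 75 to 100 kb, 1.65 beside 100 to 150 kb and 1.69 beside 150 kb or more. In replicate 2 they were 2.09, 1.85, 1.55, 1.64, 1.53 and 1.53 in the same order. From 20 to 75 kb upwards the medians showed no steady change in either list. Among the 318 stretches, length and the mean score of the edge regions had a Spearman correlation of 0.06 across stretches, and the scores on the 2 sides of a stretch 0.05. Over all 5155 intervals these were -0.27 and 0.12, where neighbouring intervals share regions.

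**Figure D5:**
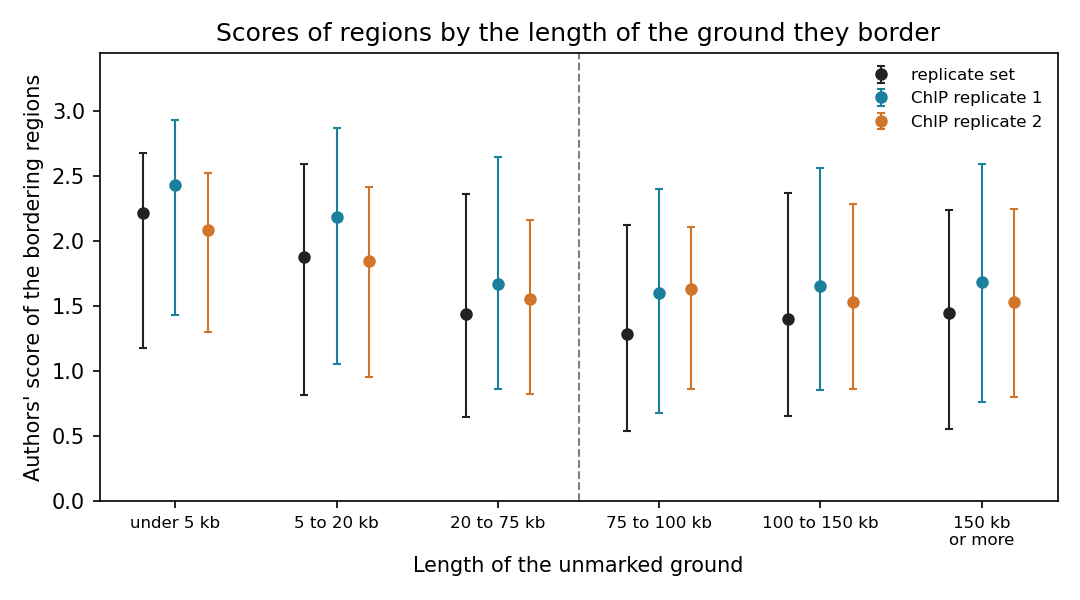
Authors' score (y axis, no unit) of the regions on both sides of unmarked ground, by the length of that ground (x axis), for the replicate set and each ChIP replicate. Points are medians and bars are quartiles over regions, and the dashed line marks 75 kb. Medians fall from ground under 5 kb to ground of 20 to 75 kb and then stay between 1.29 and 1.69.

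Beyond the edge region the density of the mark was close to that of the arms as a whole, stretches included, and below that of all ground outside stretches. Regions covered 20.4% of all ground outside stretches in replicate 1 and 23.3% in replicate 2, edge regions included. Regions covered 16.4% of the ground 5 to 10 kb outside an edge in replicate 1 and 19.0% in replicate 2, against arm means of 13.6% and 15.6%. From 10 to 20 kb they covered 15.7% and 18.0%, from 20 to 50 kb 13.9% and 16.0%, and from 50 to 100 kb 13.1% and 15.1%. These distances can run into the next stretch. The first 5 kb, covered to 56.5% and 60.5%, hold the edge region by construction.

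Most edge regions were present in both replicates. Of the 586, 487 (83.1%) were covered to at least 50% by both replicate lists, against 88.7% of the other 4574. Counted whether or not the other list covered them too, replicate 2 covered 88.4% against 94.8%, and replicate 1 covered 92.3% against 92.2%. Any overlap was found in both lists for 490 edge regions (83.6%), against 88.4% of all regions on the arms. It was found in replicate 1 alone for 53 edge regions, in replicate 2 alone for 29 and in neither for 14. The median scores of these classes were 1.76, 0.32, 0.37 and 0.34. The 14 in neither list were 1001 to 1701 bp wide, and the narrowest regions of the replicate lists were 1301 and 1302 bp. Of the 14, 12 scored under 1. The exceptions were a region on 2R (2338320 to 2339478) that scored 1.15 and a region on 2L (4182716 to 4183716) that scored 3.08. The region on 2L is 1001 bp wide, the smallest width in the list, and lies at the end of a 148.0 kb stretch. The exceptions were singled out after their values were seen.

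The 50 regions with a stretch on both sides were weaker still. Their median score was 1.13, against 1.47 for the 536 with a stretch on 1 side and 2.01 for the rest, and 10.0% of them scored 2 or more against 50.5% of the rest. Their median width of 3125 bp was close to the 3097 bp of the rest. In replicate 1 the corresponding 55 regions had a median score of 1.28 against 2.26 for the rest, and in replicate 2 the 47 had 1.34 against 1.92. Replicate 1 listed 48 of the 50 and replicate 2 listed 40, all 40 of which were also in replicate 1, and 2 were in neither. Both lists thus held 80% of the 50, against 88.4% of all regions on the arms. The ground joined by leaving out such a region measured 159.0 to 470.4 kb, with a median of 245.4 kb.

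The strongest of the 50 stood on 2R from 15998172 to 16004578, with scores of 2.87 in the replicate-set list, 2.81 in replicate 1 and 2.99 in replicate 2. It has 278.2 kb without the mark on one side and 114.7 kb on the other. Its neighbour across the longest stretch of 2R, from 15713222 to 15719928, was the third strongest, with 2.44, 2.37 and 2.56 in the same order. A region on 2L from 14490012 to 14494402 had scores of 2.59, 2.58 and 2.66. On X, a region from 13889504 to 13892472 had 2.21, 2.60 and 1.70, and a region from 3465900 to 3468518 had 2.08, 2.14 and 2.04. These 5 were present in both replicates, with scores above the median of edge regions in each.

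The 5 weakest were absent from replicate 2. They lay on 2L from 7702528 to 7704204 (score 0.16 in the replicate-set list, 0.23 in replicate 1), on 3R from 13072256 to 13073872 (0.26, and in neither replicate list), on X from 20793948 to 20795212 (0.28 and 0.43), on 2L from 11358646 to 11359936 (0.28 and 0.44) and on 2R from 13893678 to 13895630 (0.34 and 0.61). Without these regions the stretches on both sides would form unmarked ground of 204.5, 191.6, 238.1, 159.0 and 220.6 kb in the replicate-set list, in the same order. Replicate 2 still divided the first of these. It had a separate region on 2L from 7700342 to 7701723 (score 0.42), 0.8 kb from the absent one, which left empty intervals of 122.9 and 80.3 kb.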

How the data were processed

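Chromatin immunoprecipitation with an H3K79me2 antibody and sequencing was done in 2 ChIP and 2 input samples of whole embryos. The submitters' processing notes name Bowtie 0.12.7 as a tool. The authors deposited 3 lists of enriched regions on FlyBase release 5, per the file headers, each region with start, end and a score without a stated unit. Which caller and threshold were used, and how the replicate set was formed from the 2 ChIP samples, is not given in the sources used here. The score column deposited by the authors was used to describe and rank regions, by differences and medians.

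Intervals between neighbouring enriched regions were taken as next start minus previous end minus 1, on the 5 large arms, with lengths from the file headers, and those of at least 75000 bp were kept. The 2 depleted regions, listed for the replicate set, lay in no stretch and were left out. Values per replicate list are given as mean ± SD (n = 2). Nothing was tested, since the regions that chose the stretches supply all values. Reads behind the lists are unknown. The members and the rule for named stretches and regions were chosen with earlier results of these data known. That rule takes the 10 longest stretches, the longest of each arm, those next to the limit, the 5 with most replicate bases, the longest runs, and the 5 strongest and 5 weakest regions between stretches. The code was tested on simulated lists. Alternatives were other length limits, score and width limits, the replicate lists, and arms without their centromere ends. The software was numpy 2.4.6, scipy 1.17.1, pandas 2.3.3 and matplotlib 3.10.9 under Python 3.11.15.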

Additional observations from a re-analysis of the deposited data

How the results depend on the processing

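With a limit of 50 kb there were 540 stretches with a median of 83.4 kb, which held 44.5% of the arms, and 39.6% of them were next to another. With 100 kb there were 193, with a median of 132.8 kb, 24.1% of the arms and 19.2%. Keeping only regions scoring at least 1 gave 394 stretches against 318, a share of 48.2%, a median of 128.4 kb and 1.27% without any replicate base. The score difference of edge minus other regions was then -0.20, a choice that removes low scores by construction. Keeping only regions as wide as those of the replicate lists gave a share of 34.3%, and leaving out the 1 Mb at the centromere ends gave 31.5%. In the list of either replicate alone the share was 35.5% to 36.0%, the median 108.6 to 114.3 kb, the share next to another stretch 27.4% to 30.3% and the score difference -0.58 to -0.33, all with the sign of the replicate-set list (-0.60). Joining over marked ground of at most 50 kb put 49.7% of stretches in a group with another, without a share of all intervals to set beside it. Counting replicate midpoints gave 94.7% without a replicate region, and leaving out 1 kb at each edge gave 90.6%. In total 21 values moved by less than 1 SD of the replicates, by less than 1.5 times for counts, or within the 95% Wilson interval. The other 22 moved by more. Among these was the share of the arms in stretches, under every alternative. The 394 stretches are among the 21 by the rule for counts only, since the SD of the number between replicates was 12.7. No paired analysis was possible because the input samples have no list of their own here and no test was made. Depth is unknown, and how weak an enrichment the lists could show inside a stretch was not tested.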
